A study of Mus musculus with 4 samples.

Results

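The genes described here encode 8 families of guidance proteins: semaphorins, plexins, Eph receptors, ephrins, Slits, Robo receptors, netrins and Unc5 receptors. They were chosen by symbol from the deposited gene table and number 61 of its 17915 coding genes. There are 18 semaphorins, 9 plexins, 13 Eph receptors, 7 ephrins, 3 Slits, 4 Robo receptors, 4 netrins and 3 Unc5 receptors. Sema3c, Sema3g, Ephb4, Efnb2 and Unc5b, which serve as markers of endothelial subtypes, were set apart and appear below only for comparison. The RNA came from sorted lung endothelial cells of mice carrying Cdh5-CreER, aSMA-LSL-Dre and the NR1 reporter, given tamoxifen 5 times and studied 6 weeks after transverse aortic constriction (TAC), a narrowing of the aorta that loads the heart. Both groups share this genotype and treatment. The tdTomato ECs (2 libraries, here tdTomato+) had switched on the alpha smooth muscle actin recorder at some time, and the ZsGreen ECs (2 libraries, here ZsGreen+) carried the endothelial label without it. Recombination is driven by the Cdh5 promoter, so the recorder reads only cells in which that Cre was active. No library is labelled as from an unoperated mouse. The labels call the libraries of a group biological replicates but give no age and do not say whether mice were pooled, or shared between libraries. P-values therefore measure the spread between these libraries only.

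Guidance proteins were first known for steering growing axons and also shape vessels. Semaphorins signal through plexins, and secreted class 3 semaphorins mostly need a neuropilin as co-receptor; Eph receptors are tyrosine kinases whose ephrin ligands stay on the membrane of neighbouring cells, so both cells can be signalled to. Slits bind some Robo receptors, and netrins bind Unc5 receptors, DCC and neogenin. In endothelium these systems are known to act on sprouting, on cell contacts and on barrier function, and Robo4 and Plxnd1 are known as receptors of endothelial cells.

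Libraries held 17050673 to 18574737 estimated counts. Of 6 endothelial markers 5 had a negative log2 fold change, and none was at 0 in any library. Their sum was 4970 and 4340 CPM (counts relative to the scaled library size) in the tdTomato+ libraries and 6155 and 5387 CPM in the ZsGreen+ libraries. Pecam1 (1862 and 1809 against 2104 and 1940 CPM), Kdr (376 and 300.4 against 422 and 454 CPM) and Cldn5 (406 and 533 against 769 and 915 CPM) lay lower in both tdTomato+ libraries, Cdh5, Tek and Erg overlapped, and none passed edgeR's adjusted test. The part of this shift in the guidance genes that stood lower was not tested. The level of Acta2, the recorded gene, was 303.9 and 527.5 CPM in the tdTomato+ libraries against 87.6 and 82.9 CPM in the others.

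No guidance gene passed the test between tdTomato+ and ZsGreen+ cells over all genes. Sema3a, Sema3d, Sema7a, Plxna1 and Efnb1 stood lower and Slit3, Efna5 and Sema4a higher in both tdTomato+ libraries. These are the genes apart between groups with an unadjusted edgeR p under 0.05 and a mean of at least 1 CPM. Others, counted below, were also apart. Of the 61 genes 45 had enough counts to be tested. In 43 of them at least 1 library of each group reached the filter's level. For the other 2, Robo2 and Robo3, only the tdTomato+ libraries did. Plxna3, Ephb3, Efna2, Slit2 and Unc5a reached it in both tdTomato+ libraries but not in both ZsGreen+ libraries. Robo2 and Robo3 could enter only by being higher in tdTomato+ cells, and the others named here also relied on that group. The folds and p of all these named genes support nothing. Of the 45, 0 had an adjusted p under 0.05 in edgeR's quasi-likelihood test, with 0.304% of all 13177 tested genes called, 0.167% higher and 0.137% lower. The smallest adjusted p was 0.101, that of Sema3a. At an unadjusted edgeR p under 0.05 there were 9 of the 45, 4 higher, Robo3 included, and 5 lower, where all tested genes had 8.77%, made up of 5.62% higher and 3.15% lower. A log2 fold change of at least 1 in either direction was found for 10 of the 45, Plxna3, Efna2 and Robo3 included, and for 9.75% of all tested genes. The libraries of the groups did not overlap for 21 of the 45, 12 higher and 9 lower. The 12 include Plxna3, Efna2, Robo2 and Robo3. Among all tested genes the groups did not overlap for 38.1%, 19.9% higher and 18.2% lower. A positive log2 fold change was found for 27 of the 45 and for 49.3% of all tested genes. The 27 include Plxna3, Efna2, Slit2, Unc5a, Robo2 and Robo3. Most of the abundant guidance genes, given below, had a negative one. The median log2 fold change was 0.17 over the 45 guidance genes and -0.01 over all tested genes. By the other tools, limma-voom (0.25% of all genes called) called none and DESeq2, which called 2.37% of the genes it adjusted, called 5: Sema3a (DESeq2 adjusted p = 9.74e-06), Sema7a (0.000148), Slit3 (0.0298), Sema3d (0.0383) and Plxna1 (0.0443). No guidance gene passed with RLE factors (0.311% of all genes called), upper quartile factors (0.281%), a minimum count of 30 (0.385%) or deposited TPM plus 1 or plus 0.1 (0.259% and 0.184%), nor without tdTomato+ replicate 1 (0.126%), tdTomato+ replicate 2 (0.0295%) or ZsGreen+ replicate 2 (0.19%). With the replicate number as a block, which the labels do not tie to a mouse or day, 8 passed, Robo3 included, where 7.09% of all genes did.

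**Figure D1:**
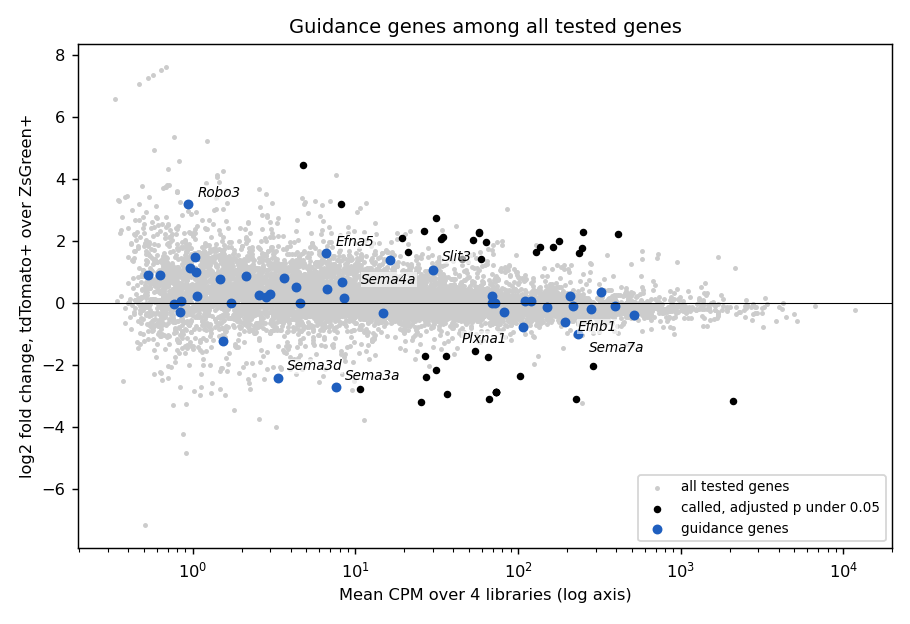
Mean CPM over the 4 libraries (log axis) against the log2 fold change, tdTomato+ over ZsGreen+, of 13177 tested genes in grey, the 40 genes called at an adjusted p under 0.05 in black and the 45 tested guidance genes in blue. No blue point is a called gene; the 9 labelled ones are those with an unadjusted p under 0.05.

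Summed over the 61 genes, the level per length was 1346.1 and 1289.9 TPM (a share of transcripts, corrected for their length) in tdTomato+ cells and 1341.6 and 1303 TPM in ZsGreen+ cells. A few genes carried it. A mean of 10 TPM or more was reached by 15 genes, 15 lay between 1 and 10 TPM, and 31 lay below 1 TPM. The most abundant were the ligands Efna1 at a mean of 242 TPM and Sema3f at 230.3 TPM, the receptor Robo4 at 172 TPM and the ligands Sema7a at 112 TPM, Efnb1 at 91.8 TPM, Sema6b at 89.2 TPM and Ntn1 at 76.3 TPM, followed by the receptor Plxnd1 at 73.2 TPM. Among the 15 genes at 10 TPM or more, 4 had a positive and 11 a negative log2 fold change. In 12 of the 15 it was less than 0.5 in size, and the other 3 were Sema7a, Plxna1 and Efnb1.

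**Figure D2:**
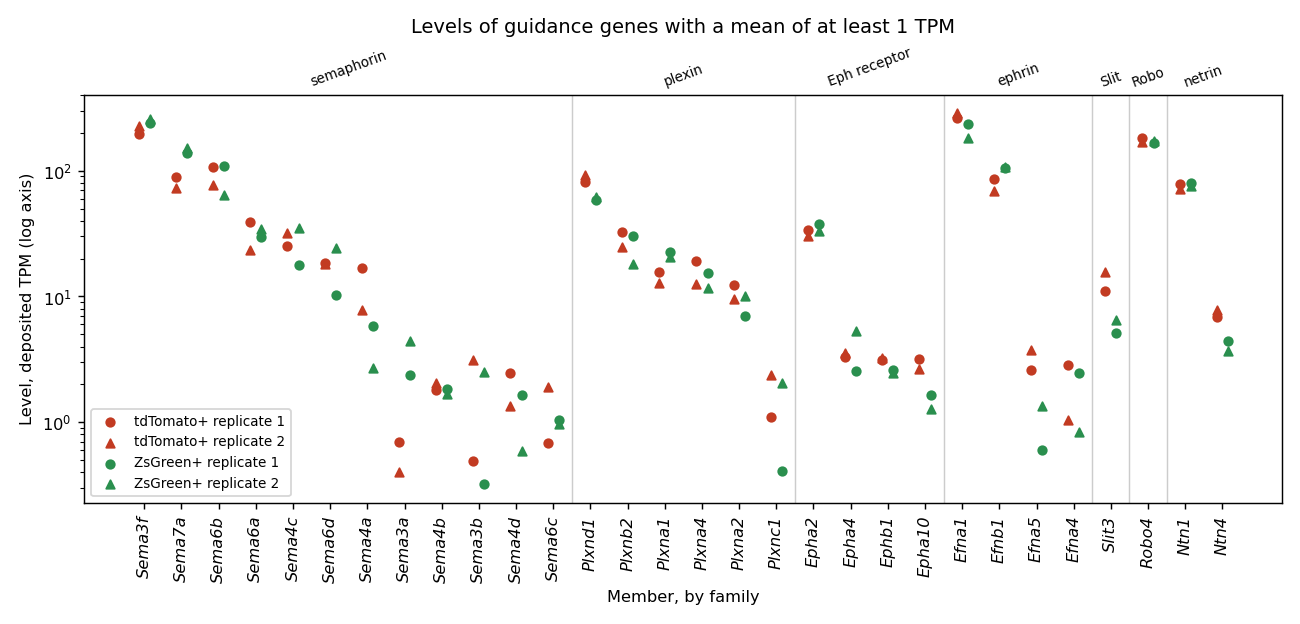
Deposited TPM (log axis) of the 30 guidance genes with a mean of at least 1 TPM, by family, with 1 point for each library. Efna1, Sema3f and Robo4 stood at 166 TPM or more in every library, while Sema3a separated the groups at 0.4 and 0.7 TPM against 2.37 and 4.46 TPM.

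The promoters of Sema3a and Sema7a, the lower genes with the smallest p, and of Slit3 and Efna5, the higher genes with the smallest p, differ in base composition and are shown for that reason. Each is 300 bases of the gene's strand, 250 before and 50 after the start that RefSeq gives on GRCm38.p6, written 5′ to 3′, with matches to a GC box (GGGCGG, either strand) in capitals. The regions are chr5:13396534-13396833 on the plus strand for Sema3a, chr9:57939862-57940161 on the plus strand for Sema7a, chr11:35121206-35121505 on the plus strand for Slit3 and chr17:62881268-62881567 on the minus strand for Efna5. For Sema3a and for Sema7a the start used lies within the longer annotated gene.
Sema3a: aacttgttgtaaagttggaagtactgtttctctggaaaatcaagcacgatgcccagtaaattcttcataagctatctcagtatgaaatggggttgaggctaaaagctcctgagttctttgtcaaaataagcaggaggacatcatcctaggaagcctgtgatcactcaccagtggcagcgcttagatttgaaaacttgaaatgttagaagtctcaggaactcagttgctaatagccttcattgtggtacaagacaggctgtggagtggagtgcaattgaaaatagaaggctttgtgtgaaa
Sema7a: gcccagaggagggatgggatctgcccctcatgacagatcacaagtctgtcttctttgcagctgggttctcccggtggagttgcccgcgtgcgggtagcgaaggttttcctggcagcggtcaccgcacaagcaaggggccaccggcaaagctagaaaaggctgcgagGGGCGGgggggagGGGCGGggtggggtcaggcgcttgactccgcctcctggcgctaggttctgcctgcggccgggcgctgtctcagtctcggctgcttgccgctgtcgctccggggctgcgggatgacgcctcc
Slit3: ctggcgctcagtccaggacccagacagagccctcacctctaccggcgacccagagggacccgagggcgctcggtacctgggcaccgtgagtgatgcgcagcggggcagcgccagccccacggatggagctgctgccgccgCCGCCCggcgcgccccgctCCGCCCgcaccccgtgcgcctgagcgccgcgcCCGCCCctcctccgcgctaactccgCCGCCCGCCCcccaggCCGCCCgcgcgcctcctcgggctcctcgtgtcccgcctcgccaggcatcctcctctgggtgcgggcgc
Efna5: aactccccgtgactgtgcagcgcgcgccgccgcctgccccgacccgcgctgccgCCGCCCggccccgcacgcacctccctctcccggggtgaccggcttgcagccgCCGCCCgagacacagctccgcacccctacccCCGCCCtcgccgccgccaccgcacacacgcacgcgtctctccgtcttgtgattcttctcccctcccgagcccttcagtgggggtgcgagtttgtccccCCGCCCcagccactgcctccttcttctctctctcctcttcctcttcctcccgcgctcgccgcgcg
Sema3a's window was 41.3% G and C with 2 CpG dinucleotides and no GC box. Sema7a's was 67.3% with 23 CpG and 2 GC boxes, Slit3's 78.3% with 41 CpG and 6 GC boxes, a pair of which overlap, and Efna5's 73.3% with 38 CpG and 4 GC boxes. The median over 32851 RefSeq promoters was 52.7% G and C and 7 CpG. A GC box was in 35.7% of all these promoters and in 46 of the 68 promoters listed for guidance genes, which cover 52 of the 61 genes. Neither an ETS motif (CCGGAAG), a TEAD motif (GGAATG), a FOX motif (TGTTTAC), an E-box (CAGGTG) nor a CArG box was found in any of the 4 windows on either strand. All promoters held them at 8.86%, 14.7%, 3.65%, 20.2% and 1.63%. The 68 listed for guidance genes held them at 2.94%, 11.8%, 0%, 13.2% and 2.94%. A match is a description of letters and not of binding.

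Of 15 tested semaphorins, the ligands of plexins, 11 had a negative and 4 a positive log2 fold change, the median was -0.03, and none passed edgeR's adjusted test. Sema3a, a secreted repellent that acts through neuropilin 1 and A-type plexins, had counts of 47 and 27 in tdTomato+ cells and 159 and 299 in ZsGreen+ cells, or 2.59 and 1.42 against 10.1 and 16.4 CPM. Both tdTomato+ libraries lay well below both ZsGreen+ libraries. The log2 fold change was -2.72 (SE 0.46, 95% interval -3.81 to -1.64, edgeR adjusted p = 0.101), a level 6.6-fold higher in ZsGreen+ cells. Sema3d, another secreted class 3 semaphorin, stood at 1.05 and 1.05 CPM in the tdTomato+ libraries against 2.72 and 8.49 CPM in the ZsGreen+ libraries. Its groups did not overlap, but the ZsGreen+ libraries lay further from each other than ZsGreen+ replicate 1 did from the tdTomato+ libraries. The log2 fold change of Sema3d was -2.42 (SE 0.65, 95% interval -3.96 to -0.87, edgeR adjusted p = 0.28). Leaving out a library leaves 1 in its group, so only sizes are given here. Without ZsGreen+ replicate 1 Sema3a was at -3.03 and Sema3d at -3.01, and without ZsGreen+ replicate 2 at -2.33 and -1.37. Without tdTomato+ replicate 1 they were at -3.22 and -2.41, and without tdTomato+ replicate 2 at -2.33 and -2.40. Without a filter on low counts, where 0.764% of all genes were called, Sema3a passed (edgeR adjusted p = 0.0203).

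Lymphatic endothelial markers moved with these genes. Of the 7 listed 6 were measured, and Prox1, Mmrn1, Reln, Flt4 and Pdpn had both tdTomato+ libraries below both ZsGreen+ libraries, while Lyve1 overlapped. Of these Mmrn1 and Reln passed edgeR's adjusted test. The summed level of all 6 was 706 and 995 CPM in the tdTomato+ libraries against 884 and 1159 CPM in the ZsGreen+ libraries, and without Lyve1, left out after its level was seen, 203 and 156 against 477 and 567 CPM. None of the 6 was at 0 in any library. Prox1, which defines the lineage, stood at 4.13 and 3.78 CPM against 6.9 and 17.9 CPM. Airway epithelial markers summed to 53.5 and 60.4 CPM in the tdTomato+ libraries against 20.4 and 388 CPM in the ZsGreen+ libraries. Scgb1a1 made up 384 CPM of the last, in ZsGreen+ replicate 2, where Sema3a and Sema3d were also highest. Of these 4 markers 3 had a positive and 1, Scgb1a1, a negative log2 fold change. The part of lymphatic or airway cells in the levels of Sema3a and Sema3d was not tested. In bulk RNA fewer cells of a type and less RNA per cell cannot be told apart.

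Sema7a, a semaphorin anchored to the membrane by a lipid that binds plexin C1 and integrin beta 1, was the abundant semaphorin with the clearest separation. It stood at 168 and 146 CPM in the tdTomato+ libraries against 325 and 303 CPM in the ZsGreen+ libraries, which is 157 ± 15.6 against 314 ± 15.6 CPM (SD, n = 2). The gap between the groups was far wider than that between replicates, and the log2 fold change was -1.001 (SE 0.18, 95% interval -1.44 to -0.56, edgeR adjusted p = 0.126). Sema7a spans positions 57939596 to 57962865 of chromosome 9 in GRCm38.

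Sema4a, a transmembrane semaphorin known from immune cells as well as endothelium, lay higher in tdTomato+ cells at 31.9 and 15.3 CPM against 12.8 and 5.31 CPM. The groups came close to each other, since tdTomato+ replicate 2 lay just above ZsGreen+ replicate 1. Its log2 fold change was 1.38 (SE 0.50, 95% interval 0.18 to 2.58, edgeR adjusted p = 0.474). Macrophage and monocyte markers summed to 4228 and 2161 CPM in the tdTomato+ libraries and to 2444 and 606 CPM in the ZsGreen+ libraries. Lyz2 made up most of this sum, at 3953 and 1969 against 2269 and 469 CPM, while Ly6c2 was higher in replicate 2 of both groups, at 4.68 and 41.8 against 8.23 and 75.7 CPM. Of these markers 5 of the 6 were higher on average, 1 of the 6 was apart between the groups, and none was at 0. Their part in the level of Sema4a was not tested.

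Sema3f, the most abundant semaphorin and a ligand of neuropilin 2, took 39.5% to 48.3% of the family's summed TPM. It stood at 407 and 485 CPM in the tdTomato+ libraries against 617 and 563 CPM in the ZsGreen+ libraries. The groups did not overlap, and the log2 fold change was -0.40 (SE 0.20, 95% interval -0.87 to 0.06, edgeR adjusted p = 0.654). Sema6b, a transmembrane ligand of A-type plexins, overlapped between groups at 240 and 180 CPM against 298 and 150 CPM, giving a log2 fold change of -0.09 (SE 0.33), and its sign turned without tdTomato+ replicate 2 or ZsGreen+ replicate 1 and on the TPM scale. Outside these, Sema6a, Sema4c and Sema6d had means from 17.8 to 31.6 TPM and log2 fold changes between -0.13 and -0.02, with groups that overlapped. Sema3b, Sema3e, Sema4b, Sema4d and Sema6c were scarce, at or below 6.44 CPM in every library, and overlapped too. Sema5a had 19 and 15 counts against 39 and 34 (log2 fold change -1.23, SE 0.60, edgeR adjusted p = 0.657). Sema4f, Sema4g and Sema5b had at most 20 counts in any library and were not tested.

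**Figure D3:**
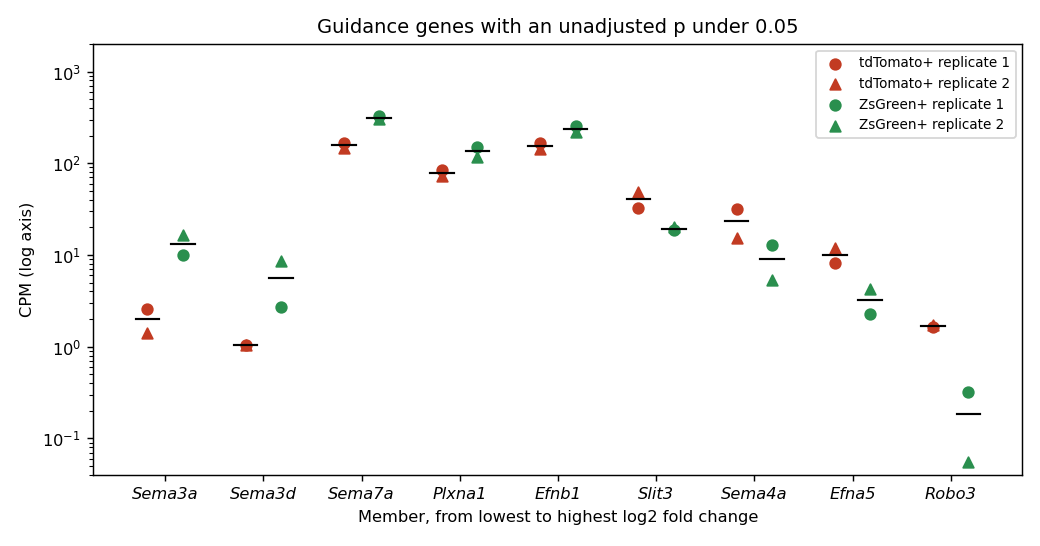
CPM (log axis) of the 9 guidance genes with an unadjusted edgeR p under 0.05, with 1 point for each library and black bars for the means of 2 libraries. Sema3a stood at 2.59 and 1.42 CPM in the tdTomato+ libraries against 10.1 and 16.4 CPM in the ZsGreen+ libraries, and Robo3 at 1.65 and 1.73 against 0.32 and 0.05 CPM.

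All 9 plexins, the receptors of semaphorins, were tested; 8 had a positive log2 fold change and 1, Plxna1, a negative one, none passed edgeR's adjusted test and the median was 0.21. Plxna1, which with neuropilin 1 forms a receptor for Sema3a, stood at 84.6 and 72.9 CPM in the tdTomato+ libraries against 151 and 118 CPM in the ZsGreen+ libraries. Its groups did not overlap. The log2 fold change was -0.78 (SE 0.20, 95% interval -1.24 to -0.31, edgeR adjusted p = 0.246). Plxnd1, the endothelial plexin and receptor of Sema3e, was the most abundant of the family with 43.5% to 59.2% of its TPM. It stood at 333 and 397 CPM in the tdTomato+ libraries against 300.1 and 267 CPM in the ZsGreen+ libraries, so that the lower tdTomato+ library lay only a little above the higher ZsGreen+ one. Its log2 fold change was 0.36 (SE 0.19, 95% interval -0.10 to 0.83, edgeR adjusted p = 0.713).

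Plxnb2, a receptor of class 4 semaphorins, overlapped at 125 and 98.7 CPM against 144 and 73.1 CPM, giving a log2 fold change of 0.04 (SE 0.32), and its sign turned without tdTomato+ replicate 1 or ZsGreen+ replicate 2. Plxna3 was scarce, with 25 and 32 counts in tdTomato+ cells and 6 and 13 in ZsGreen+ cells (log2 fold change 1.46, SE 0.69, edgeR adjusted p = 0.634). Of the remaining plexins, Plxna2 and Plxna4 stood at means of 9.7 and 14.7 TPM with log2 fold changes of 0.21 (SE 0.20) and 0.06 (SE 0.27). Plxnc1, the plexin that binds Sema7a, was at 4.73 and 10.7 CPM against 2.21 and 9.2 CPM, where the higher library of each group is the one numbered 2. Plxnb1 and Plxnb3 stayed below 3 CPM and overlapped between groups.

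Of 7 tested Eph receptors, 4 had a positive and 3 a negative log2 fold change, with a median of 0.17 and none past edgeR's adjusted test. Epha2, the main receptor of ephrin-A1 in endothelium, made up 72.9% to 82.7% of the summed TPM of the Eph receptors considered here. It stood at 77.1 and 70.4 CPM in the tdTomato+ libraries against 104 and 77.4 CPM in the ZsGreen+ libraries. These groups lay next to each other without overlap, with a log2 fold change of -0.30 (SE 0.20, 95% interval -0.78 to 0.18). Epha4 and Ephb1, receptors found at 3.68 and 2.87 TPM on average, overlapped between groups with log2 fold changes of -0.32 (SE 0.33) and 0.17 (SE 0.31); the sign of Epha4 turned without ZsGreen+ replicate 2. Epha10, a family member without kinase activity, stood at 5.01 and 4.2 CPM against 3.16 and 2.14 CPM, giving a log2 fold change of 0.80 (SE 0.45). Epha1 stood at 2.2 and 1.52 CPM against 1.2 and 0.99 CPM, giving a log2 fold change of 0.76 (SE 0.60). Exons of Epha1 overlap those of Zyx on the other strand, a gene at 474 to 739 CPM, and reads of the 2 cannot be told apart without stranded counting, which is not stated. Epha6 and Ephb3 lay below 1.6 CPM. Epha3, Epha8, Ephb2 and Ephb6 had at most 20 counts in any library, and Epha5 and Epha7 had 0 in all 4, which allows up to 3 counts or 0.19 CPM per library for counting error.

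Among the ephrins, 4 of the 5 tested had a positive log2 fold change and none passed edgeR's adjusted test (median 0.22). Efna1, ephrin-A1, an endothelial ligand of Epha2 known to respond to inflammatory signals, had the highest mean TPM of the 61 genes, although Sema3f stood higher in both ZsGreen+ libraries. It was at 263 and 287 TPM in the tdTomato+ libraries against 236 and 183 TPM in the ZsGreen+ libraries. On the CPM scale its groups overlapped, at 210 and 241 against 234 and 153 CPM, and the log2 fold change was 0.22 (SE 0.24, 95% interval -0.36 to 0.79), with a sign that turned without ZsGreen+ replicate 2. Efnb1, ephrin-B1, a transmembrane ligand of EphB receptors that also signals back into its own cell, stood at 168 and 142 CPM in the tdTomato+ libraries against 252 and 219 CPM in the ZsGreen+ libraries. The groups were apart, with a log2 fold change of -0.61 (SE 0.19, 95% interval -1.05 to -0.16, edgeR adjusted p = 0.37).

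Efna5, ephrin-A5, a lipid-anchored ligand of EphA receptors, was higher in tdTomato+ cells at 8.09 and 11.9 CPM against 2.28 and 4.22 CPM. Both tdTomato+ libraries lay above both ZsGreen+ libraries, with counts of 147 and 226 against 36 and 77. The log2 fold change of Efna5 was 1.61 (SE 0.44, 95% interval 0.57 to 2.66, edgeR adjusted p = 0.285), a 3.06-fold difference. Efna2 had 24 and 25 counts against 13 and 7 (log2 fold change 1.13, SE 0.72). Efna4 overlapped at 2.48 and 0.95 CPM against 2.66 and 0.77 CPM. Efna3 and Efnb3 had at most 13 counts in any library and were not tested.

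Slit3, a secreted Robo ligand, made up 97.1% to 99% of Slit TPM and was higher in tdTomato+ cells. It stood at 32.6 and 48.8 CPM in the tdTomato+ libraries against 18.7 and 20 CPM in the ZsGreen+ libraries, with counts of 592 and 930 against 295 and 365. The groups did not overlap. The tdTomato+ libraries lay further from each other than the lower did from the ZsGreen+ libraries in CPM, but not in log2. The log2 fold change was 1.07 (SE 0.25, 95% interval 0.47 to 1.68, edgeR adjusted p = 0.216). All 7 listed fibroblast markers had a positive log2 fold change and none was at 0. Their sum was 232 and 430 CPM against 93 and 116 CPM. The 5 that were apart between groups were Col1a1, Col1a2, Col3a1, Dcn and Pi16. Lum and Pdgfra overlapped, with Pdgfra at 2.09 and 3.78 against 2.66 and 2.41 CPM. Pericyte and smooth muscle markers summed to 28.7 and 45.2 CPM against 28.4 and 31.3 CPM, with 2 of 7 apart and none at 0. Alveolar epithelial markers were higher for 5 of 6, with 4 higher and 1, Hopx, lower in both tdTomato+ libraries and none at 0; they summed to 382 and 461 CPM against 254 and 141 CPM. These markers stand beside Efna5 as well, and the part of such cells in the levels of Slit3 and Efna5 was not tested. Slit2 had 12 and 41 counts against 3 and 22 (log2 fold change 0.99, SE 0.99), and its sign turned without tdTomato+ replicate 2. Slit1 had at most 2 counts in a library.

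Robo4, the Robo receptor of endothelium, made up at least 99.5% of Robo TPM in each library. Its level varied little, at 383 and 379 CPM in the tdTomato+ libraries against 442 and 380.3 CPM in the ZsGreen+ libraries, and the groups overlapped. The log2 fold change was -0.11 (SE 0.19), with a 95% interval of -0.56 to 0.33, and the sign turned on the TPM scale and without ZsGreen+ replicate 1. Robo3, a divergent Robo receptor known from axons that cross the midline, was near the floor of detection but uneven, with 30 and 33 counts in tdTomato+ cells and 5 and 1 in ZsGreen+ cells. It entered the test through the tdTomato+ libraries alone, so these counts are a description. Robo3 and Robo4 lie tail to tail on chromosome 9 (GRCm38), with Robo4 ending at 37414023 on the plus strand and Robo3 at 37416045 to 37433436 on the minus strand, 2021 bases apart. Robo2 had 10 and 16 counts against 3 and 10 and entered the same way, and Robo1 at most 3 counts.

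Ntn1, netrin-1, a secreted ligand of Unc5 receptors and DCC, held 88.9% to 94.5% of netrin TPM. It stood at 267 and 258 CPM in the tdTomato+ libraries against 335 and 269.6 CPM in the ZsGreen+ libraries. The groups touched almost exactly, since tdTomato+ replicate 1 and ZsGreen+ replicate 2 lay within a few CPM, and the log2 fold change was -0.20 (SE 0.20, 95% interval -0.67 to 0.26). Ntn4, a netrin that binds laminins of the basement membrane, stood at 9.3 and 11.1 CPM against 7.53 and 5.26 CPM, giving a log2 fold change of 0.68 (SE 0.34, edgeR adjusted p = 0.672). Ntn3 was at 2.15 and 3.36 CPM against 1.08 and 1.92 CPM, giving a log2 fold change of 0.87 (SE 0.58), and its exons overlap those of Tbc1d24 on the same strand, a gene at 5.72 to 8.42 CPM. Ntn5 had at most 10 counts. The Unc5 receptors left in the set, dependence receptors of netrins, were nearly silent: Unc5a had 19 and 11 counts against 14 and 0 (log2 fold change 0.90, SE 1.31), with a sign that turned without ZsGreen+ replicate 2, and Unc5c and Unc5d had at most 4. Exons of Unc5a overlap Hk3 on the other strand, whose level was 4.79 and 1.68 CPM against 5.06 and 0.22 CPM.

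**Figure D4:**
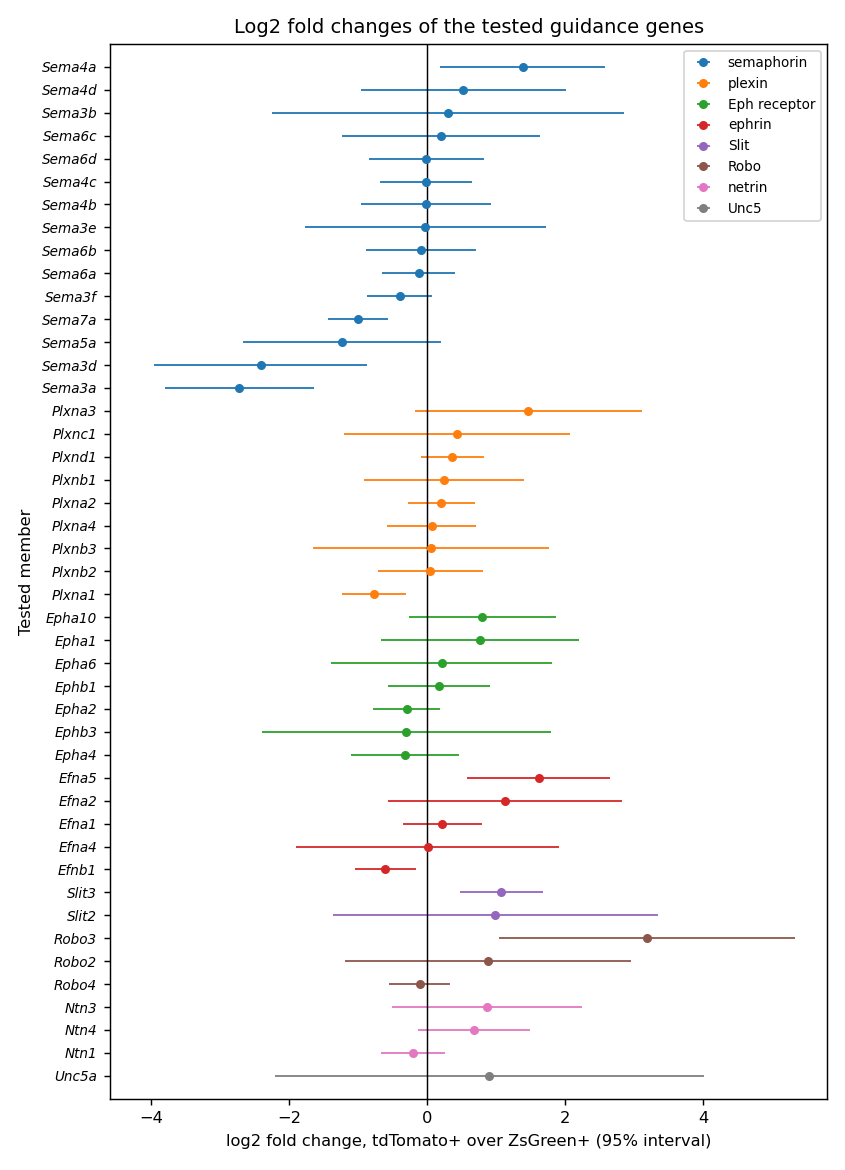
Points show the log2 fold change, tdTomato+ over ZsGreen+, with its 95% interval, for the 45 tested guidance genes by family. Intervals of 9 genes lie to one side of 0 before adjustment for the number of genes tested, namely Sema3a, Sema3d, Sema7a, Plxna1 and Efnb1 below and Sema4a, Efna5, Slit3 and Robo3 above, the last tested through its tdTomato+ counts alone.

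Among co-receptors and intracellular effectors outside the 8 families, none passed either. Of 58 listed, 56 are in the table and 53 were tested, 28 with a positive and 25 with a negative log2 fold change, a median of 0.01, and 0 past edgeR's adjusted test. An unadjusted edgeR p under 0.05 was found for 7 of the 53, 3 higher and 4 lower, against 8.77% of all tested genes, 5.62% higher and 3.15% lower. Of the partner genes limma-voom called none, and DESeq2, with 2.37% of all genes called, called Tiam1 (DESeq2 adjusted p = 0.00066) and Flrt3 (0.0349). Tiam1, an activator of Rac that Eph receptors and ephrins recruit, stood at 17.6 and 21.6 CPM in the tdTomato+ libraries against 39.5 and 82.9 CPM in the ZsGreen+ libraries (log2 fold change -1.65, SE 0.36, edgeR adjusted p = 0.18). Flrt3, a membrane protein that binds Unc5 receptors, was at 2.09 and 1.57 CPM against 4.3 and 11.2 CPM (-2.08, SE 0.56, edgeR adjusted p = 0.28). Dpysl5, a collapsin response mediator of semaphorin signals, had 15 and 6 counts against 41 and 50, and Flrt2 was at 10.7 and 9.97 CPM against 5.82 and 4.99 CPM. The small GTPase Rnd1, named after its values were seen, overlapped between groups. It stood at 549 and 305 CPM in the tdTomato+ libraries against 386 and 117 CPM in the ZsGreen+ libraries. The neuropilins, co-receptors of class 3 semaphorins, did not pass: Nrp1 was at 442 and 399 CPM against 435 and 477 CPM (-0.12, SE 0.19) with overlap, and Nrp2 without overlap at 203 and 185 CPM against 137 and 170 CPM (0.34, SE 0.19).

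Of the family genes set apart, Sema3c, a class 3 semaphorin, had a level of 64.4 and 59 CPM in the tdTomato+ libraries against 118 and 288 CPM in the ZsGreen+ libraries. Sema3g, Ephb4, Efnb2 and Unc5b had log2 fold changes of 0.07 (SE 0.22), -0.06 (SE 0.20), 0.19 (SE 0.20) and -0.38 (SE 0.19), and none of the 5 passed edgeR's adjusted test.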

How the data were processed

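RNA of sorted lung endothelial cells was amplified over the whole transcriptome from a small input before library preparation, per the labels' protocols, which can widen the spread between libraries. Per the submitters' processing notes, RSEM 1.3.1 and DESeq2 1.4.5 were used; their roles are not stated, and for the aligner and for strandedness the sources used here give nothing. The deposited table holds estimated counts, of which 16.2% to 17.9% are not whole, and TPM, FPKM and a normalized count signal made by the authors; deposited FPKM and the normalized signal were not used. Estimated counts were rounded and compared with edgeR 4.0.16 under R 4.3.3 (quasi-likelihood F-test, two-sided, TMM, filterByExpr with a minimum count of 10, Benjamini-Hochberg adjustment over 13177 genes, threshold 0.05). SE was computed as |log2 fold change| divided by the root of the F statistic, and 95% intervals use the fit's total degrees of freedom. CPM use TMM-scaled library sizes, and 3 counts equal 0.158 to 0.19 CPM. The test was run on simulated counts first, with 200 genes changed. Those counts had the same spread for every gene and no shared replicate effect. That run therefore does not measure the test's errors on these libraries. With 2 against 2 libraries an exact two-sided permutation p cannot go below 0.333, so none is given.

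Named are guidance genes that passed; those apart between groups with a mean of at least 1 CPM and an unadjusted p under 0.05; in each family the 3 with the smallest p and the 3 with the highest mean TPM; and the 4 partner genes with the smallest p. Other genes are given by range, by counts or for completeness, after their values were seen. Genes, lists and printed promoters were chosen with earlier results of these data known. The alternatives tried were DESeq2 1.42.0, limma-voom (limma 3.58.1), upper quartile or RLE factors, no filter, a minimum count of 30, each library left out, a replicate block and limma-trend on log2 of TPM plus 1 or plus 0.1. Promoters and spans are from RefSeq (GRCm38.p6); exon overlaps are from GENCODE M21.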

Additional observations from a re-analysis of the deposited data

How the results depend on the processing

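The number of guidance genes called was 0 with edgeR and also with RLE or upper quartile factors, limma-voom, a minimum count of 30 and both TPM settings, against 5 with DESeq2 and 1, Sema3a, without a filter. It ranged from 0 to 2 with 1 library left out. Over all genes the count was 40, and 327 with DESeq2, 128 without a filter, 22 with log2 of TPM plus 0.1, and 4 to 304 with 1 library left out (leaving out tdTomato+ replicate 2 gave the lowest count and leaving out ZsGreen+ replicate 1 the highest; the other two gave 17 and 26). Partner genes called were 2 with DESeq2 and 0 to 3 with 1 library left out. Of 342 alternative values for the 28 named and tested guidance genes, 313 kept direction and side of the threshold, 16 passed it and 13 changed sign. The 28 include Plxna3, Efna2, Slit2, Unc5a, Robo2 and Robo3, which relied on the tdTomato+ libraries to enter the test and whose values support nothing. Robo3, with a replicate block, is among the 16. Changes of sign with 1 library left out came in log2 fold changes that ranged from -0.51 to 0.49 for Sema6b, -0.37 to 0.62 for Plxnb2, -0.67 to 0.15 for Epha4, -0.061 to 0.56 for Efna1, -0.078 to 2.84 for Slit2, -0.22 to 0.005 for Robo4 and -0.13 to 6.92 for Unc5a. On log2 of TPM plus 1 and plus 0.1 Sema6b was at 0.12 and 0.12 and Robo4 at 0.055 and 0.055, where the median over all genes stood at 0.12 and 0.13 and not at -0.01. The cause was not tested.

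Same-numbered libraries deviated together from their group means (r = 0.455 across genes, which are not independent), but the labels do not say that a number marks a shared mouse or day. With a replicate block edgeR called 934 genes, 7.09% of those tested, 8 guidance genes (Sema3a, Sema3d, Sema4a, Sema7a, Plxna1, Efna5, Slit3 and Robo3) and 5 partner genes.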

Other observations

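Sema3d, Sema3a, Sema3e and Sema3c lie in this order on the plus strand of chromosome 5 of GRCm38, with 536 kb between Sema3d and Sema3a, 422 kb between Sema3a and Sema3e and 3320 kb between Sema3e and Sema3c. RefSeq has no other coding gene between Sema3d and Sema3a, 3 between Sema3a and Sema3e and 15 between Sema3e and Sema3c. Levels of the genes between were not looked at. Sema3d, Sema3a and Sema3c stood lower in both tdTomato+ libraries. Sema3e, known as the ligand of Plxnd1, was scarce in both groups, at 17 and 11 counts in tdTomato+ cells and 15 and 11 in ZsGreen+ cells (log2 fold change -0.03, SE 0.74).

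Some guidance genes differed between replicate numbers in the same direction in both groups. Sema3b, a secreted semaphorin, had 14 and 111 counts in tdTomato+ replicates 1 and 2 and 11 and 85 in ZsGreen+ replicates 1 and 2, so that the library numbered 2 was 7.57-fold and 6.69-fold higher. Slit2 and Plxnc1 were likewise at least 2.26-fold higher in the libraries numbered 2, and Efna4 and Sema4a were lower there in both groups; for Sema4a the groups differed by 2.6-fold as well. What the numbers share is not given in the labels.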
